A study of Bubalus bubalis with 12 samples.

Results

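Gene expression in the corpus luteum (CL) of buffalo cows 3 h after a single injection of a prostaglandin F2α (PGF2α) analogue was set against that in control CL. The comparison used 6 of the 12 arrays of the series. The 3 h group held 2 animals that had received 500 µg of cloprostenol, the analogue, into the muscle on day 11 of the estrous cycle. The control group held 4 animals of the same cycle day whose CL was collected at 0 h. All were cyclic buffalo cows (Bubalus bubalis), and the labels number the arrays as biological replicates and give the same numbers of animals. The 3 h arrays carry the numbers 1 and 3 in the labels and are given in that order throughout, and the controls are given in the order 1 to 4. Ages and breeds are not given in the labels. The arrays carry probes designed on cattle sequence, so buffalo transcripts with other bases at a probe are bound less, and levels are compared between arrays for the same probe set only. Values are log2 RMA values, a scale on which 1 unit is a 2-fold difference. Of 24016 probe sets tested, 13292 carried a single gene symbol, and 1 probe set for each of 9155 genes, that with the highest mean, gave the gene values. A gene is called above the controls where both 3 h arrays exceeded the highest of the 4 controls, and below where both lay under the lowest.

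The CL is the progesterone-secreting gland that a follicle becomes after ovulation, and in ruminants PGF2α from the uterus ends its life. PGF2α binds a receptor on luteal cells that couples through phospholipase C to calcium and protein kinase C, and the MAP kinase cascade follows. The first transcripts to respond to such signals are immediate early genes, which need no new protein synthesis. The loss of progesterone secretion precedes the loss of tissue, and endothelial and immune cells take part in both.

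The tissue carried luteal transcripts at both times. STAR, which moves cholesterol into the mitochondrion, stood at 14.85 and 14.82 at 3 h, against 14.91, 14.74, 14.71 and 14.82 in controls, on a scale whose highest value on any array was 15.33. The oxytocin gene OXT stood at 14.99 and 14.38 at 3 h and at 14.87 to 15.12 in controls. The arrays differed in ways that their groups do not explain. The 2 arrays at 3 h had 1306 probe sets more than 2-fold apart, more than either had against any control (567 to 719 for replicate 1 and 836 to 1079 for replicate 3). Against the 3 arrays at 6 h, replicate 3 had 604 to 912 probe sets that far apart and replicate 1 had 900 to 1477. Control replicates 1 and 4 had only 6 probe sets more than 2-fold apart. Control replicate 3 had 575 to 802 against the other controls, and its mean level was 9.91 over 11 macrophage markers and 10.43 over 30 interferon response genes, where the other controls had 8.23 to 8.35 and 8.77 to 8.80. No technical repeat shows whether control replicates 1 and 4 are separate animals. How far these arrays set the results was tested by leaving each out and by averaging control replicates 1 and 4. In whole tissue, fewer cells of a type and less RNA per cell cannot be told apart.

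With limma, 5 of 24016 probe sets were called at 3 h (0.0208% of those tested), 1 up regulated and 4 down regulated, and 3 of 9155 genes (0.0328%) were called. By position, 595 genes lay above the controls (6.5% of all genes) and 798 below (8.72%). Both shares are the background for every list below. Without control replicate 3 the counts were 1014 (11.1%) and 1447 (15.8%). With all 4 controls, the split turned to 740 above and 635 below when each array was centred on its median. The median gene stood 0.02 above the control mean in replicate 1 and -0.06 from it in replicate 3. Most of these differences were small. The lower 3 h array cleared the highest control by at least 0.5 for 22 genes, and the higher 3 h array lay at least 0.5 under the lowest control for 18. Only HP and PPP4R4 cleared the controls by 1 unit or more. At the edge of the rule, PROCR was just above with 7.60 and 8.40 at 3 h and a highest control of 7.60, which replicate 1 passed by 0.00024, and PI15, whose replicate 1 equalled the highest control of 3.90, was just outside. SCYL3 was just below with 7.33 and 6.95 against a lowest control of 7.33, and CPSF3 was just outside with 10.50 and 10.37 against 10.50.

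The 2 arrays often left the control range on opposite sides. Replicate 1 lay over the highest control for 27.8% of genes and replicate 3 for 21.6%, and they lay under the lowest control for 21.9% and 33.9%. Replicate 1 was over and replicate 3 under the controls for 1009 genes, and the reverse held for 451. Large departures were mostly upward in replicate 3. It exceeded the highest control by at least 1 unit for 139 genes (1.52%), where replicate 1 did for 35 (0.382%). Replicate 1 lay at least 1 unit under the lowest control for 25 genes (0.273%) and replicate 3 for 14 (0.153%).

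**Figure D1:**
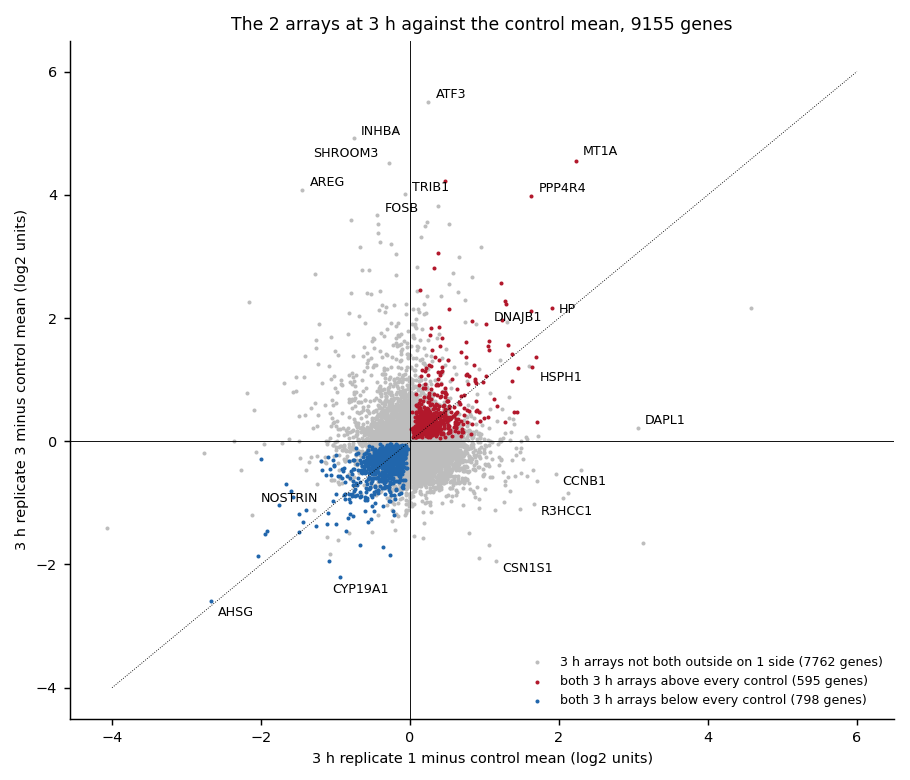
Each point is 1 of 9155 genes, with its level in 3 h replicate 1 minus the mean of the 4 controls on the horizontal axis and the same for 3 h replicate 3 on the vertical axis (log2 units, dotted line at equality). Red points are the 595 genes with both arrays above every control and blue points the 798 below, and a tall grey column of genes such as INHBA and ATF3 was high in replicate 3 alone.

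The called gene that rose was HSPH1, a co-chaperone that helps HSP70 release its client proteins. It stood at 12.43 and 11.99 at 3 h, against 10.61, 10.77, 11.13 and 10.64 in controls (difference 1.42 ± 0.19, SE, adjusted p = 0.0321 over all genes). Both 3 h arrays were over every control, and so were they in all 4 of its probe sets, of which 1 was called. NOSTRIN encodes an adaptor that draws endothelial nitric oxide synthase away from the cell membrane. It fell to 10.07 and 10.20 at 3 h, against 11.02, 11.11, 11.06 and 11.04 in controls (difference -0.93 ± 0.12, adjusted p = 0.0292). Neither 3 h array came near the controls, which spanned less than 0.1. SMIM10, a small membrane protein gene, fell to 7.81 and 7.71 at 3 h, against 8.67, 8.65, 8.46 and 8.60 in controls (difference -0.83 ± 0.10, adjusted p = 0.0232). Here too the groups did not overlap. The 2 other called probe sets had no gene symbol. The first stood at 7.48 and 7.28 at 3 h, against 9.47, 8.99, 9.07 and 9.59 in controls (difference -1.90 ± 0.21, adjusted p = 0.0230 over all probe sets). The second stood at 6.56 and 6.11 at 3 h, against 8.53, 7.80, 8.04 and 8.64 in controls (difference -1.92 ± 0.24, adjusted p = 0.0333). Of all called features these had the widest gaps to the controls. No probe set was called when only the 6 arrays entered the fit, when control replicates 1 and 4 were averaged or when either was left out, and 60 were called without control replicate 3.

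Of 39 heat shock proteins and co-chaperones measured 1 was called, 8 lay above the controls and 2 below (20.5% and 5.13%, where all genes gave 6.5% and 8.72%). The median member stood 0.21 over the control mean in replicate 1 and 0.02 in replicate 3. DNAJB1, which delivers misfolded proteins to HSP70, stood at 10.56 and 11.43 at 3 h, against 9.36, 9.75, 9.56 and 9.46 in controls. HSPA8, the constitutive HSP70, stood at 13.97 and 13.95 at 3 h, against 13.31, 13.51, 13.19 and 13.26 in controls. Both arrays cleared every control for these 2 genes, by about as much in each array for HSPA8 and by more in replicate 3 for DNAJB1. Neither was called (adjusted p = 0.176 and 0.233). AHSA1, which speeds the HSP90 ATPase, stood at 11.21 and 10.86 at 3 h, against 10.49 to 10.64 in controls. BAG3, a nucleotide exchange factor of HSP70, stood at 10.59 and 10.42 against 10.01 to 10.34. HSF1, the transcription factor of the heat shock response, stood at 8.93 and 8.71 against 8.33 to 8.67, and the HSP90 co-chaperone PTGES3 and the chaperonin subunit CCT2 were the other members above. The stress-induced HSP70 gene HSPA1A was high in 1 array only, at 12.45 and 10.85 at 3 h, against 10.83, 11.54, 10.51 and 10.94 in controls. The small heat shock gene CRYAB showed the opposite, at 7.72 and 9.58 at 3 h, against 7.55, 7.92, 8.42 and 7.58 in controls. The mitochondrial chaperonin HSPE1, at 13.43 and 13.34 against 13.44 to 13.88, and DNAJC7, at 10.43 and 10.42 against 10.55 to 10.68, lay below.

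Genes of ER stress and the unfolded protein response had 6 of 23 above the controls and 1 below (26.1% and 4.35%, where all genes gave 6.5% and 8.72%), with 0 called. ATF4, the transcription factor of the integrated stress response, stood at 11.76 and 12.51 at 3 h, against 11.25, 11.42, 11.46 and 11.39 in controls. HSPA5, the ER chaperone BiP, stood at 13.70 and 13.95 against 13.13, 13.20, 13.54 and 13.08. Its replicate 1 was only just over control replicate 3. HYOU1, PDIA4, CHAC1 and TRIB3 were the other members above, by less than 0.2 over the highest control in the lower array. SEL1L, a scaffold of ER-associated degradation, lay below at 10.00 and 10.14 against 10.31 to 10.53. The mean level of the list was 10.40 and 10.19 at 3 h, against 9.97 to 10.24 in controls, so that replicate 3 lay within the control range.

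The widest gaps above the controls belonged to genes of several kinds. HP, which encodes the haemoglobin-binding plasma protein haptoglobin, stood at 10.31 and 10.57 at 3 h, against 8.40, 8.92, 8.06 and 8.25 in controls (difference 2.03 ± 0.35, adjusted p = 0.0951). Both 3 h arrays were more than 1 unit over the highest control, and HP was not called. PPP4R4, a regulatory subunit of protein phosphatase 4, stood at 7.76 and 10.11 at 3 h, against 5.90, 6.24, 6.67 and 5.71 in controls. Replicate 3 was far over replicate 1, and both were over every control. TNFRSF12A, the receptor of the cytokine TWEAK, stood at 10.47 and 11.42 at 3 h, against 9.03, 9.12, 9.66 and 8.94 in controls (difference 1.76 ± 0.29, adjusted p = 0.0951), and both of its probe sets lay above. The zinc importer gene SLC39A8 stood at 10.60 and 11.33 at 3 h, against 9.26, 9.74, 9.53 and 8.93 in controls. MT1A, a metallothionein that binds zinc and copper, had the widest difference of these genes, at 10.18 and 12.50 at 3 h, against 6.97, 8.56, 9.39 and 6.88 in controls. Its controls also spread over more than 2 units, with replicate 3 the highest, and its adjusted p was 0.233.

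The zinc finger factor gene OSR2 was above in all 3 of its probe sets, at 8.22 and 9.22 against 6.26 to 7.27. TSPAN12, a tetraspanin of the Norrin receptor complex, stood at 10.59 and 10.19 at 3 h, against 9.12 to 9.30 in controls, and CST6, the cysteine protease inhibitor cystatin E/M, at 10.34 and 10.39 against 9.03 to 9.47. Both probe sets of each were above. ITGA5, the α chain of the fibronectin receptor, stood at 9.04 and 8.79 against 7.21 to 7.95, with 1 of 3 probe sets above. The spindle protein gene FAM83D stood at 8.78 and 9.28 against 7.57 to 7.86, the keratin gene KRT18 at 10.00 and 10.42 against 8.66 to 9.19, and PHF10, a subunit of a BAF chromatin remodelling complex, at 9.50 and 9.88 against 8.52 to 8.70. Of the 14 genes with the widest gaps above only HSPH1 was called, and PHF10 had the next lowest adjusted p (0.0673).

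**Figure D2:**
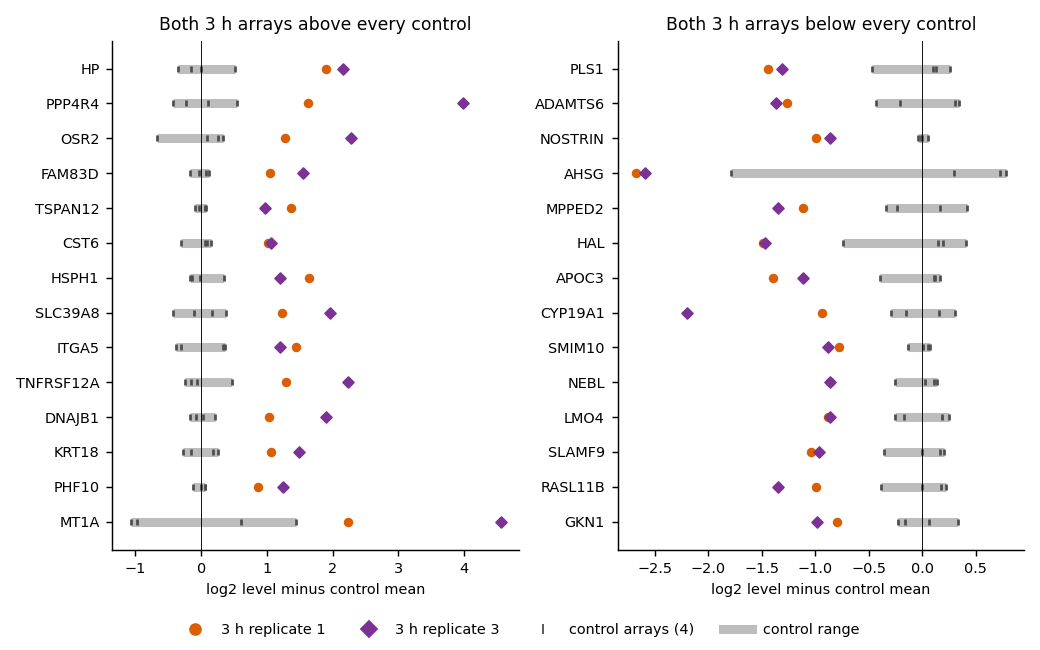
Levels relative to the control mean (horizontal axes, log2 units) of the 14 genes with the widest gap above the controls on the left and the 14 with the widest gap below on the right. Entries without an informative symbol were passed over. Circles are 3 h replicate 1, diamonds 3 h replicate 3, ticks the 4 controls and grey bars their range, which is widest for MT1A on the left and AHSG on the right and narrowest for NOSTRIN.

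Among genes with an informative symbol, those below the controls were led by PLS1, an actin-bundling protein. PLS1 stood at 6.56 and 6.69 at 3 h, against 8.13, 8.10, 7.54 and 8.26 in controls. ADAMTS6, a secreted metalloprotease, stood at 5.12 and 5.02 at 3 h, against 6.69, 6.18, 5.95 and 6.73 in controls (adjusted p = 0.0951). In both the 3 h arrays agreed within 0.15 and control replicate 3 was the lowest control. AHSG, the plasma glycoprotein fetuin-A, stood at 9.39 and 9.47 at 3 h, against 12.84, 10.27, 12.35 and 12.78 in controls. Control replicate 2 was more than 2 units under the other controls and still over both 3 h arrays, and 4 of the 8 probe sets of AHSG lay below. APOC3, an apolipoprotein that inhibits lipoprotein lipase, stood at 7.55 and 7.83 at 3 h, against 9.05, 9.11, 8.55 and 9.06 in controls. HAL, which degrades histidine, stood at 5.18 and 5.20 against 6.86, 6.81, 5.93 and 7.08. The Ras-like GTPase gene RASL11B stood at 8.35 and 8.0 against 9.57, 9.35, 8.96 and 9.53, with 1 of 2 probe sets below. None of these was called. The groups were apart in each by the rule that chose the genes, so this is no separate result. In all but AHSG control replicate 3 lay closest to the 3 h arrays.

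The other genes with wide gaps below were MPPED2, at 5.47 and 5.24 at 3 h against 6.24 to 7.0 in controls, the LIM-domain gene LMO4, at 12.29 and 12.30 against 12.91 to 13.42, and SLAMF9, at 8.19 and 8.27 against 8.87 to 9.42. NEBL, an actin-binding protein related to nebulin, stood at 7.19 and 7.19 against 7.80 to 8.18 and GKN1, a gastrokine, at 5.53 and 5.35 against 6.11 to 6.67. CYP19A1, the aromatase that turns androgens into estrogens, stood at 7.41 and 6.16 at 3 h, against 8.51, 8.20, 8.06 and 8.66 in controls. Its 4 probe sets disagreed, with 1 below, 1 above and the others neither.

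Immediate early genes set the 2 arrays at 3 h apart. Of 40 measured, 0 were called, 7 lay above the controls and 1 below (17.5% and 2.5%, where all genes gave 6.5% and 8.72%). Without control replicate 3 the counts were 11 and 2 (27.5% and 5%, where all genes gave 11.1% and 15.8%). Replicate 3 exceeded the highest control by at least 1 unit for 18 of them (45%, where all genes gave 1.52%). Replicate 1 did so for 0, where all genes gave 0.382%. Replicate 3 was over replicate 1 for 35 of the 40, where all genes gave 3946 of 9155. The mean level of the list was 9.89 in replicate 1 and 11.35 in replicate 3, against 9.87 to 9.93 in controls. In replicate 1 the members stood between -1.0 and 0.69 from the control mean with a median of 0.01, and in replicate 3 between -1.12 and 5.50 with a median of 1.27.

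FOSB, an AP-1 subunit, stood at 6.95 and 11.06 at 3 h, against 7.40, 7.31, 7.64 and 7.21 in controls. ATF3, a stress-induced repressor of the same leucine zipper class, stood at 7.52 and 12.78 at 3 h, against 6.34, 7.05, 9.35 and 6.35 in controls. TRIB1, a pseudokinase, stood at 9.11 and 13.18 at 3 h, against 8.90, 9.20, 9.54 and 9.06 in controls. In these 3 genes replicate 3 was over 3 units beyond every control, replicate 1 lay within the control range or under it, and ATF3 was also raised in control replicate 3. The zinc finger genes EGR1 and EGR4 differed. EGR4 lay above in both arrays, at 6.86 and 9.54 at 3 h, against 6.58, 6.41, 6.52 and 6.43 in controls. EGR1 stood at 11.69 and 13.30 against 12.69, 11.97, 11.47 and 12.75, with replicate 1 inside the control range. The orphan nuclear receptor gene NR4A1 stood at 11.02 and 12.88 against 11.73, 11.01, 10.37 and 11.71, and FOS at 12.28 and 12.60 against 12.30, 11.81, 10.49 and 12.31, where replicate 1 lay between the controls. The other FOS probe set lay above in both arrays, at 10.00 and 9.88 against 9.66, 9.17, 7.89 and 9.74, with replicate 1 the higher.

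Some early genes were above the controls in both arrays. JUN stood at 11.31 and 12.78 at 3 h, against 10.70, 11.16, 11.12 and 10.69 in controls, and JUNB at 11.38 and 12.53 against 11.02, 10.59, 11.19 and 11.14. ZFP36, which binds AU-rich messages and speeds their decay, stood at 10.60 and 11.36 against 10.20, 10.00, 9.36 and 10.11. PLK3, a stress-responsive kinase, stood at 7.89 and 11.64 against 7.72, 7.10, 7.24 and 7.63. For all 4 replicate 3 was the higher array and replicate 1 cleared the highest control by less than 0.5. ID1 and ID3, inhibitors of basic helix-loop-helix factors, were also above, at 12.06 and 12.37 against 11.49 to 11.67 and at 10.88 and 10.78 against 10.34 to 10.71. The kinase gene SGK1 was the 1 member below, at 11.74 and 11.68 against 11.85 to 12.01.

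**Figure D3:**
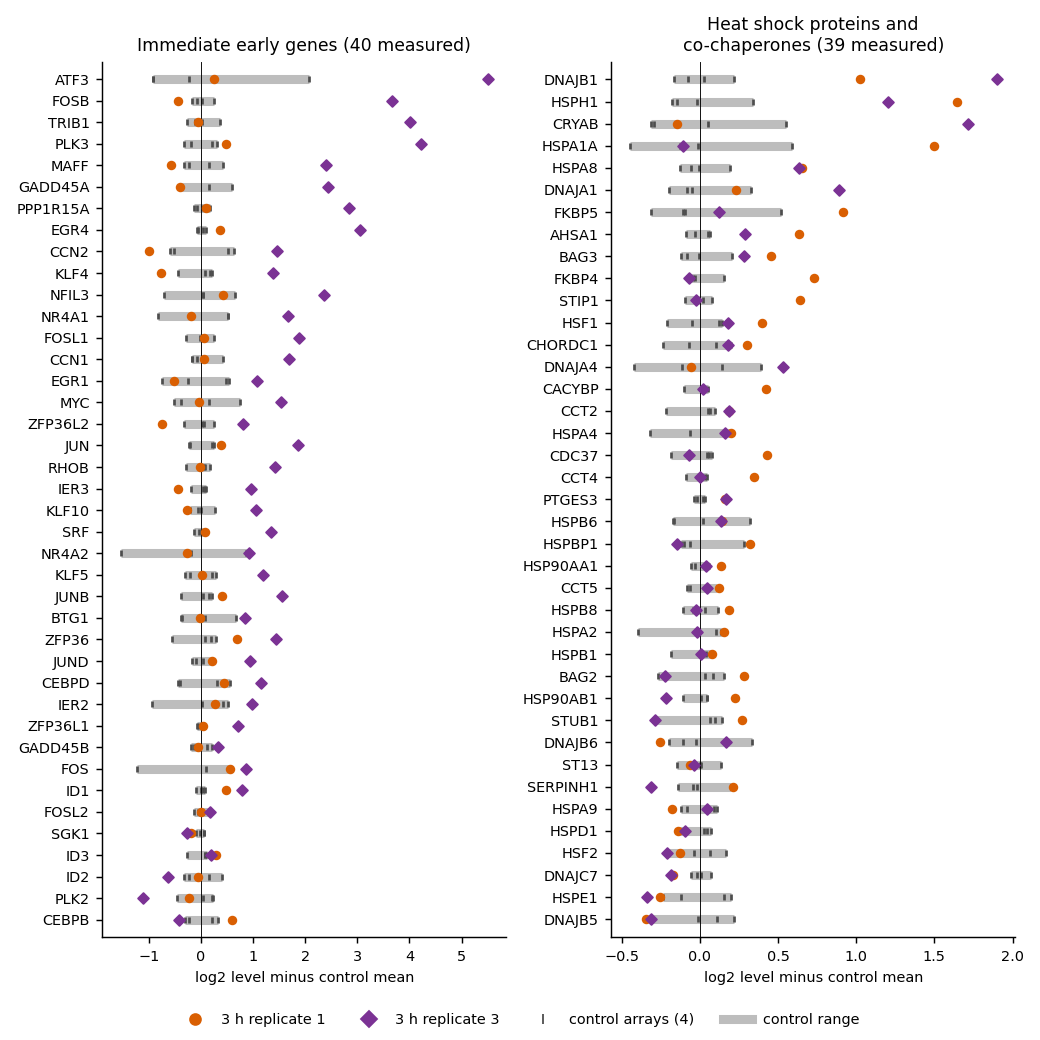
Levels relative to the control mean (horizontal axes, log2 units) of 40 immediate early genes, ordered by the difference between the 3 h arrays, and of 39 heat shock genes, ordered by the mean difference at 3 h. Circles are 3 h replicate 1, diamonds 3 h replicate 3, ticks the 4 controls and grey bars their range. The diamonds run far to the right of the circles for most early genes, and not for most heat shock genes.

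Single genes of several kinds were also high in replicate 3 and not in replicate 1, most of them chosen for that difference. INHBA, the βA subunit of activin and inhibin A, had the widest difference between the 3 h arrays among genes whose controls spanned less than 1 unit, at 7.29 and 12.96 at 3 h, against 7.68, 8.39, 8.44 and 7.68 in controls. The EGF receptor ligand gene AREG stood at 4.23 and 9.76 at 3 h, against 4.72, 5.54, 7.36 and 5.08 in controls. In both, replicate 1 lay under every control and replicate 3 over every control. Others with wide differences were SHROOM3, an actin regulator of cell shape, at 6.05 and 10.85 against 6.07 to 6.91, and RNF39 at 5.72 and 9.52 against 5.96 to 6.22. F3, tissue factor, stood at 8.54 and 11.96 against 8.97 to 9.47, and LMO7 at 6.12 and 9.46 against 6.17 to 7.03. RGS16, which switches off G protein signals, was chosen after its values were seen, at 7.49 and 12.75 at 3 h, against 7.09, 7.77, 8.78 and 7.14 in controls.

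Of the feedback genes of the MAP kinase and receptor pathways 3 of 17 lay above the controls and 1 below, with 0 called. The shares were 17.6% and 5.88%, where all genes gave 6.5% and 8.72%. SPRY1, an inhibitor of receptor tyrosine kinase signals, stood at 10.66 and 10.98 at 3 h, against 9.76, 9.99, 10.09 and 9.78 in controls (difference 0.92 ± 0.14, adjusted p = 0.0647). SPRED1, of the same family, stood at 8.64 and 8.90 against 8.25, 8.18, 8.35 and 8.38. Both 3 h arrays were over every control in each. RASD1, a Ras-like protein, stood at 8.51 and 9.09 against 9.95, 9.45, 9.23 and 9.94, under every control.

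Cytokines, chemokines and adhesion molecules, and the NF-kB and SOCS genes, turned on control replicate 3. Of 35 cytokine genes 2 lay above the controls (CSF2 and CSF3) and 0 below (5.71% and 0%). Of 24 NF-kB and SOCS genes 2 (OSMR and BCL3) lay above and 0 below (8.33% and 0%). All genes gave 6.5% and 8.72%, and 0 were called in either list. CSF2, at 5.45 and 5.55 against 5.02 to 5.24, and CSF3, at 6.00 and 6.22 against 5.83 to 5.93, were low on the scale and above by little. The mean level of the cytokine list was 7.35 and 7.98 at 3 h, against 7.01, 7.17, 8.43 and 7.06 in controls. CCL2, the monocyte chemokine, stood at 11.26 and 13.28 at 3 h, against 10.13, 9.85, 12.89 and 10.07 in controls. SOCS3, which inhibits cytokine receptors, stood at 7.08 and 9.41 against 6.32, 5.65, 7.51 and 6.22. For both, 3 h replicate 1 lay under control replicate 3 and over the other controls, and 3 h replicate 3 lay over all 4. Without control replicate 3 the counts above were 14 of 35 cytokine genes and 13 of 24 NF-kB and SOCS genes, where 11.1% of all genes then lay above. The macrophage markers moved in the same way. Their mean level was 9.10 and 9.08 at 3 h, against 8.23, 8.35, 9.91 and 8.30 in controls, and 0 of 11 lay above the 4 controls while 10 of 11 lay above the other 3. Control replicate 3 was the highest control for these markers, so leaving it out raises such a count by construction. The other 3 include control replicates 1 and 4, with only 6 probe sets more than 2-fold apart. The part of macrophages in the cytokine values was not tested.

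Cell cycle genes were higher in 3 h replicate 1. Of 32 measured, replicate 1 lay over the highest control for 23 and replicate 3 for 3, and replicate 3 lay under the lowest control for 18. The same shares over all genes were 27.8%, 21.6% and 33.9%. The medians were 0.55 over the control mean in replicate 1 and -0.17 from it in replicate 3. CCNB1, the mitotic cyclin B1, stood at 9.02 and 6.53 at 3 h, against 6.90, 7.08, 7.15 and 7.14 in controls. CCNB2 stood at 8.86 and 6.71 against 7.52, 7.43, 7.82 and 7.29, and CKS2, a subunit of cyclin-dependent kinases, at 10.54 and 8.53 against 8.92, 9.19, 9.03 and 9.05. In all 3 the controls lay between the 3 h arrays. CDC7, a kinase that starts DNA replication, stood at 7.47 and 5.18 against 6.62, 6.35, 6.84 and 6.88. CCNE2, cyclin E2, was the 1 member above the controls in both arrays (2 without control replicate 3), at 7.37 and 6.92 against 5.94, 6.71, 6.05 and 6.25, and the inhibitor CDKN1C the 1 below, at 9.52 and 9.97 against 12.25, 10.42, 11.09 and 12.14. Other genes higher in replicate 1 than in replicate 3 were CSN1S1, a casein (6.91 and 3.82 against 5.54 to 6.07 in controls), DAPL1 (7.78 and 4.94 against 4.43 to 5.0), R3HCC1 (11.53 and 8.85 against 9.58 to 10.16) and PSPH, the last enzyme of serine synthesis (8.50 and 6.37 against 6.57 to 7.11).

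Genes of oxidative phosphorylation showed the most uniform divergence of the 19 pathway lists. Replicate 1 was over replicate 3 in all 52 measured. Over all genes this held for 5202 of 9155. Replicate 1 lay over the highest control for 34 and replicate 3 under the lowest for 44, where all genes gave 27.8% and 33.9%. The differences were small. The median member stood 0.19 over the control mean in replicate 1 and -0.36 from it in replicate 3. Both arrays lay on 1 side for few members, with SDHA, a subunit of complex II, above at 11.29 and 11.18 against 10.96 to 11.12, and 4 below. Of these, NDUFA1, a subunit of complex I, stood at 13.56 and 13.29 at 3 h, against 13.65 to 13.81 in controls.

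Of 24 steroidogenesis genes 0 were called, 1 lay above the controls and 3 below (4.17% and 12.5%, where all genes gave 6.5% and 8.72%). Leaving out control replicate 3, 8 of the 24 lay below (33.3%, where all genes gave 15.8%), the added genes being NR5A1, CYP17A1, HSD17B1, HSD11B2 and INSL3. HSD3B1, which makes progesterone from pregnenolone, stood at 14.65 and 14.64 at 3 h, against 14.91, 14.86, 14.76 and 14.92 in controls (difference -0.22 ± 0.18, adjusted p = 0.702). CYP11A1, the side-chain cleavage enzyme, stood at 14.13 and 14.14 against 14.35, 14.25, 14.15 and 14.36. Both 3 h arrays were under every control in each, by little, and CYP19A1 was the other member below. LHCGR, the LH receptor gene, stood at 11.28 and 11.40 at 3 h, against 12.02, 11.23, 10.28 and 12.19 in controls, inside a control range of nearly 2 units. NR5A1, the transcription factor SF-1, stood at 9.81 and 9.38 against 10.45, 10.23, 9.22 and 10.40, also within the range of the 4 controls. The progesterone receptor gene PGR was the member above, at 4.69 and 4.81 against 4.46 to 4.68.

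Of 30 genes of cholesterol supply, 6 lay below the controls and 1 above (20.0% and 3.33%, where all genes gave 8.72% and 6.5%), with 0 called. The genes below were TM7SF2, MSMO1, SQLE, HMGCS1 and CYP51A1, enzymes of cholesterol synthesis, and SREBF1, a transcription factor of lipid synthesis. TM7SF2 stood at 12.02 and 11.79 at 3 h, against 12.66, 12.53, 12.29 and 12.78 in controls. SQLE, squalene epoxidase, stood at 13.27 and 13.17 against 13.71, 13.41, 13.57 and 13.62. MSMO1 stood at 14.47 and 14.47 against 14.68, 14.65, 14.67 and 14.66. The 2 arrays at 3 h agreed within 0.25 for these 3 genes. NR1H2, the oxysterol receptor LXRβ, lay above at 10.21 and 10.07 against 9.91 to 9.95.

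Among 25 genes of prostaglandin reception, synthesis and signalling 0 were called. With 1 above and 2 below (4% and 8%), the list was near the 6.5% and 8.72% of all genes. Without control replicate 3 the counts were 3 and 4 (12% and 16%, where all genes gave 11.1% and 15.8%). PTGFR, the PGF2α receptor gene, stood at 13.39 and 13.53 at 3 h, against 13.66, 13.45, 13.42 and 13.77 in controls, with replicate 1 just under the controls and replicate 3 among them. PTGS2, the inducible cyclooxygenase, stood at 6.87 and 8.58 against 7.15, 7.33, 7.60 and 7.26, under the controls in replicate 1 and over them in replicate 3. PTGS1, the constitutive enzyme, lay below at 6.90 and 6.85 against 6.94 to 7.40, and AKR1C4 at 5.55 and 6.06 against 6.40 to 6.87, in 1 of its 6 probe sets. The prostaglandin transporter SLCO2A1 lay above at 8.32 and 8.38 against 7.78 to 8.15.

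Genes listed as markers of follicular granulosa and theca cells had the lowest median of the 28 lists, -0.82. Of 9 measured, 3 lay below the controls (33.3%, where all genes gave 8.72%), 1 above (11.1%, where all genes gave 6.5%) and 0 were called. The member above was AMH, at 6.56 and 6.38 at 3 h against a highest control of 6.37. FOXL2, at 7.28 and 6.56 against 6.50 to 7.21, had replicate 1 over the controls and replicate 3 among them. With control replicate 3 left out, 5 of 9 lay below (55.6%, where all genes gave 15.8%). Their mean level was 8.15 and 8.31 at 3 h, against 9.35, 9.05, 8.49 and 9.28 in controls, so that control replicate 3 again lay nearest to the 3 h arrays. SERPINE2, a protease inhibitor, stood at 12.83 and 13.54 at 3 h, against 14.10, 13.88, 14.04 and 14.01 in controls. FSHR, the FSH receptor gene, stood at 4.63 and 4.61 against 5.29, 4.84, 4.76 and 4.93, near the low end of the scale. INSL3, the insulin-like hormone of theca cells, was singled out after its values were seen, at 8.29 and 10.96 at 3 h, against 13.32, 13.18, 9.48 and 13.45 in controls. Replicate 1 was under every control, and replicate 3 lay between control replicate 3 and the others. The difference of INSL3 at 3 h, -2.73, was the widest of the 9, so this gene weighs most in the mean levels of the list. SERPINE2 at 13.88 to 14.10 and INSL3 at 9.48 to 13.45 were expressed in control CL, and their cell of origin was not tested.

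Genes of vascular tone held 1 called member of 20, NOSTRIN. Of the 20, 2 lay above and 4 below (10% and 20%, where all genes gave 6.5% and 8.72%). NOS3, endothelial nitric oxide synthase, lay above at 7.13 and 7.57 at 3 h, against 6.13, 6.80, 6.75 and 6.56 in controls. EDN2, endothelin 2, stood at 7.67 and 9.98 against 7.62, 7.52, 7.51 and 7.44, high in replicate 3 and just over the controls in replicate 1. EDN1, endothelin 1, stood at 8.39 and 9.82 against 7.92, 9.40, 9.59 and 8.01, with replicate 1 inside the control range. The inducible synthase gene NOS2 lay below at 7.92 and 7.82 against 8.29 to 8.77, and its other probe sets did not lie below in both arrays. AGTR1, the angiotensin II receptor, also lay below at 7.36 and 6.91 against 7.67 to 8.33. So did CALCRL, a receptor of adrenomedullin, at 7.95 and 7.92 against 8.11 to 8.50. Of 19 endothelial markers 4 lay above (NOS3, VWF, PLVAP and ROBO4), 0 below and 0 were called. The shares were 21.1% and 0%, where all genes gave 6.5% and 8.72%. Their mean level was 8.67 and 9.05 at 3 h, against 8.46 to 8.87 in controls. The defining markers PECAM1 and CDH5 stood at 10.42 and 10.89 and at 10.19 and 10.44 at 3 h, against 9.76 to 10.57 and 9.95 to 10.60 in controls. The part of endothelial cell number in these values was not tested.

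Of 28 angiogenic factors and receptors 3 lay above, 1 below (10.7% and 3.57%, where all genes gave 6.5% and 8.72%) and 0 were called. With control replicate 3 left out, 6 lay above (21.4%, where all genes gave 11.1%). ANGPT1, which stabilises vessels through the receptor TEK, lay below at 9.08 and 9.32 at 3 h, against 10.01, 9.83, 9.70 and 9.89 in controls. ANGPTL4, an inhibitor of lipoprotein lipase, lay above at 9.63 and 8.71 against 7.99, 8.47, 8.60 and 7.87, the higher array being replicate 1. HIF1A, the hypoxia-inducible factor, stood at 13.75 and 13.73 against 13.39 to 13.70, and the Notch ligand gene DLL4 at 8.84 and 8.96 against 8.36 to 8.72. VEGFA stood at 11.49 and 12.50 against 11.75, 11.98, 12.10 and 11.84, under the controls in replicate 1 and over them in replicate 3. Its other probe set disagreed and lay above in both arrays, at 8.59 and 9.46 against 8.16 to 8.53.

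Matrix proteases and their inhibitors had 5 of 27 above and 1 below (18.5% and 3.70%, where all genes gave 6.5% and 8.72%). With 0 called, 3 h replicate 3 was at least 1 unit over the controls for 5 (18.5%, where all genes gave 1.52%). Against the controls other than replicate 3, 10 of the 27 lay above (37.0%, where all genes gave 11.1%). MMP19 stood at 9.36 and 10.17 at 3 h, against 8.86, 9.16, 8.65 and 8.77 in controls. TIMP1, an inhibitor of matrix metalloproteinases, stood at 14.74 and 14.65 against 14.17, 14.41, 14.48 and 14.17. Both arrays were over every control for each, and TIMP2, MMP3 and ADAMTS5 were the other members above. In the activin, TGFβ and BMP list 3 of 24 lay above and 1 below (12.5% and 4.17%, where all genes gave 6.5% and 8.72%). Without control replicate 3 the counts were 4 and 2 (16.7% and 8.33%, where all genes gave 11.1% and 15.8%). TGFB1 stood at 7.95 and 8.08 against 6.48, 7.61, 7.22 and 6.98, BMP4 at 7.30 and 7.70 against 6.82, 7.19, 7.24 and 6.80 and the receptor gene ACVR2B, the member below, at 6.78 and 6.73 against 7.0 to 7.06. In the IGF and PI3K list 3 of 22 lay above and 0 below (13.6% and 0%, where all genes gave 6.5% and 8.72%). Without control replicate 3 the counts were 8 and 1 (36.4% and 4.55%, where all genes gave 11.1% and 15.8%). GAB1, a docking protein of growth factor receptors, stood at 9.92 and 9.94 at 3 h, against 8.95, 9.37, 9.50 and 8.95 in controls, with both of its probe sets above. IGFBP2 stood at 10.02 and 10.88 against 9.51, 9.19, 8.62 and 9.75, and IGF1 at 8.53 and 8.79 against 8.54, 8.76, 8.58 and 8.42, which overlapped.

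Of 26 apoptosis genes 1 lay above (FASLG, at 4.58 and 4.58 against a highest control of 4.57), 0 below and 0 were called, and 4 lay above without control replicate 3. Of 7 EGF family genes 0 lay outside the controls in both arrays, and 1 lay above without control replicate 3 (14.3%). Of 30 interferon response genes 1 lay above, 2 below (3.33% and 6.67%, where all genes gave 6.5% and 8.72%) and 0 were called. RSAD2, an antiviral enzyme, stood at 7.11 and 7.41 at 3 h, against 7.63, 7.67, 11.25 and 7.82 in controls, and TRIM21 at 7.34 and 7.46 against 7.86, 7.96, 8.07 and 7.93. IRF8 lay above at 9.55 and 9.32 against 8.38, 8.87, 9.24 and 8.18. Without control replicate 3, 12 of the 30 lay above and 2 below (40% and 6.67%, where all genes gave 11.1% and 15.8%).

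**Figure D4:**
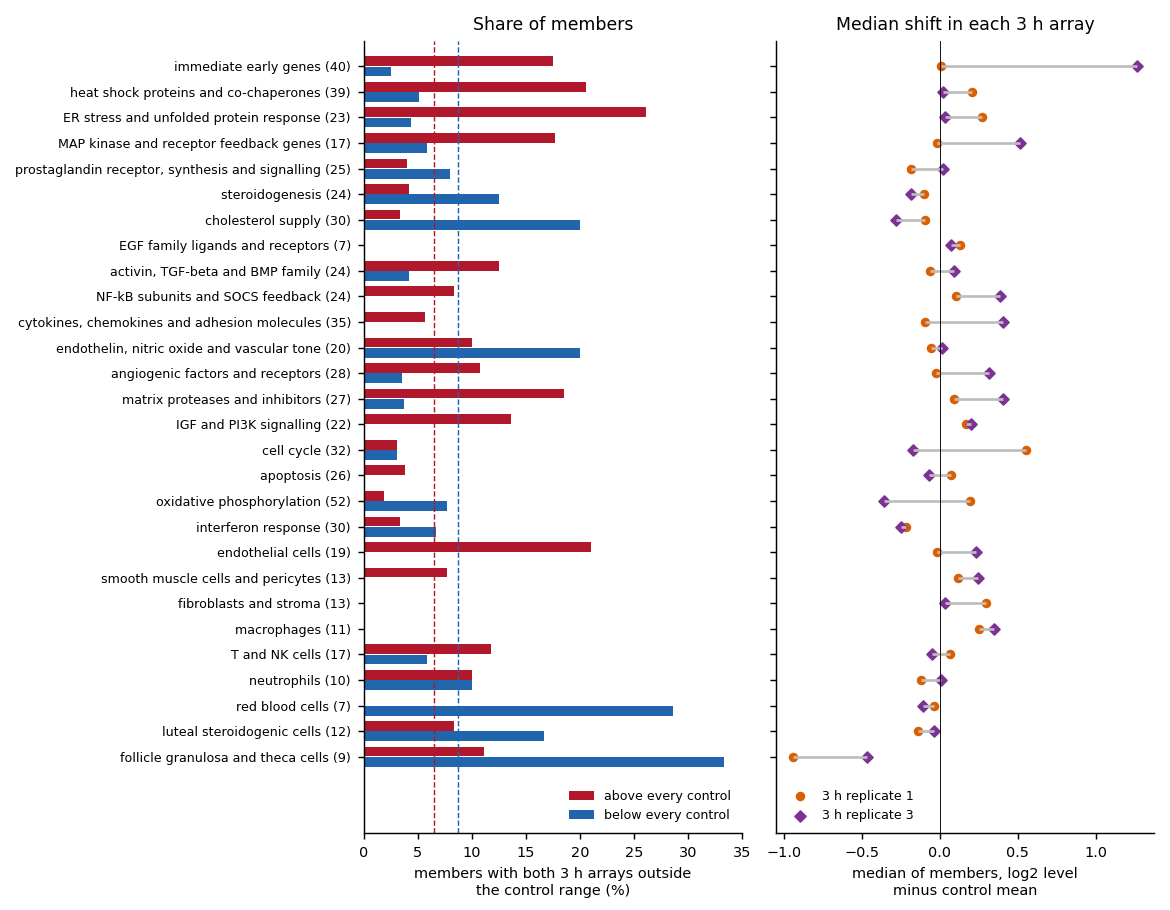
The left panel shows, for 19 pathway lists and 9 cell type marker lists (number measured in brackets), the percentage of members with both 3 h arrays above every control (red) or below (blue), with dashed lines at 6.5% and 8.72% for all genes. The right panel shows the median member in each 3 h array minus the control mean (log2 units), where immediate early genes (0.01 and 1.27) and cell cycle genes (0.55 and -0.17) are spread widest.

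The arrays of 6 h and 18 h, given here as levels with no test (mean ± SD, n = 3 each), place the 3 h values in time. HSPH1 stood at 12.17 ± 0.14 at 6 h and 11.74 ± 0.25 at 18 h, over every control. DNAJB1 stood at 10.04 ± 0.53 at 6 h and 9.51 ± 0.31 at 18 h, where its level overlapped the controls. HP stood at 9.55 ± 0.31 and 9.38 ± 0.74, under both 3 h arrays on average. Below the controls, NOSTRIN stood at 9.62 ± 0.15 and 9.47 ± 0.16, and SMIM10 at 7.36 ± 0.01 and 7.16 ± 0.07, lower than at 3 h in each. ANGPT1 stood at 8.47 ± 0.13 and 8.39 ± 0.37. Other genes below at 3 h were higher later. AHSG stood at 13.31 ± 0.87 at 6 h and 13.06 ± 0.28 at 18 h, over its control mean. RASL11B stood at 9.01 ± 0.10 at 6 h, under its control mean of 9.35, and at 10.44 ± 0.27 at 18 h, over it. NEBL stood at 8.87 ± 0.69 and 10.08 ± 0.45.

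For the genes that were high in 3 h replicate 3 alone, the later arrays fell into several patterns. INHBA stood at 12.81 ± 0.91 at 6 h and 12.45 ± 0.78 at 18 h, near replicate 3, and AREG at 12.45 ± 0.37 and 11.37 ± 0.51, over it. F3 stood at 11.68 ± 0.61 and 11.51 ± 0.29, again near replicate 3. FOSB stood at 9.63 ± 0.83 at 6 h and 7.71 ± 0.55 at 18 h, SHROOM3 at 9.11 ± 0.38 and 7.70 ± 0.21 and TRIB1 at 11.40 ± 0.59 and 10.92 ± 0.29, all under replicate 3 at both later times. In replicate 1 these 6 genes lay within the control range or under it.

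**Figure D5:**
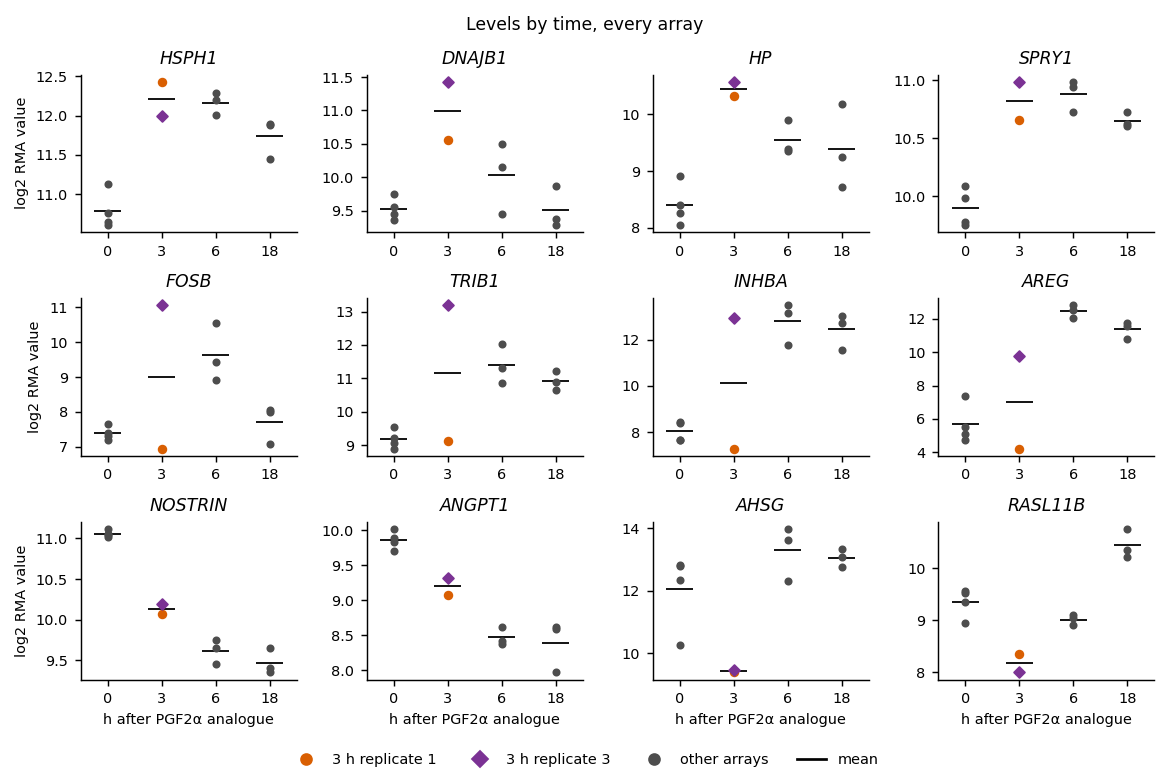
Log2 RMA values (vertical axes, a scale of its own for each gene) of 12 genes on every array at 0 h (4 controls) and 3, 6 and 18 h after injection (horizontal axis, evenly spaced). The circle and the diamond mark 3 h replicates 1 and 3, grey points the other arrays and bars the mean of each time. The 3 h arrays lie together for NOSTRIN, ANGPT1 and AHSG, and apart for FOSB, TRIB1, INHBA and AREG.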

How the data were processed

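The labels number the arrays as biological replicates and give the same numbers of animals, without tying an array to an animal. If arrays share an animal, p-values measure in part technical spread. The authors deposited log2 RMA values (robust multichip average, a summary of the probes of each probe set after background correction and quantile normalization) of Affymetrix GeneChip Bovine Genome Arrays. The software version and chip definition were not given in the sources used here. Of 24128 probe sets, 112 control probe sets were left out. Gene symbols came from the platform annotation, with 86 probe sets holding several symbols and 10638 none. Scanner values were not used, so no probe set could be tested against background.

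Group means of all 12 arrays were fitted with limma 3.58.1 in R 4.3.3 (lmFit, contrasts.fit, eBayes, two-sided), and p-values were adjusted by Benjamini-Hochberg over all probe sets, or over all genes for gene values, with a call at 0.05. At an unadjusted p under 0.05 there were 2376 probe sets, where 1200.8 were expected by chance. The fit gave the errors (SE). An exact permutation test of 2 arrays against 4 cannot give a two-sided p under 0.133 and was not used. The steps were tested on simulated data.

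The members and the 28 gene lists were chosen with earlier results of these data known. Named genes were the called ones, the 14 widest gaps each way (passing over entries without an informative symbol), the 8 genes with the largest difference between the 3 h arrays each way among those whose control range was under 1, up to 2 members each way of every pathway list and 24 chosen luteal and signalling genes. Others are list members, or are given as chosen after their values were seen. Alternatives were a filter on dim probe sets, median centring, repeated quantile normalization, the mean of the probe sets of a gene, other limma settings, a replicate block, averaging control replicates 1 and 4, and leaving out each array. List counts without control replicate 3 were added after seeing the data.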

Additional observations from a re-analysis of the deposited data

Results flagged for a closer look

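Of the 109 genes named by the rule, 6 had 1 control array far from the other 3. Chance alone flags about 5% of such groups of 4, and the genes share the same 4 arrays. The gap of the outlying control to its nearest neighbour, as a share of the control range, was 0.947 for RSAD2 and 0.907 for CCL2, where control replicate 3 was high (7.63, 7.67, 11.25 and 7.82, and 10.13, 9.85, 12.89 and 10.07). It was 0.896 for APOC3 and 0.883 for DLL4, where control replicate 3 was low (9.05, 9.11, 8.55 and 9.06, and 8.68, 8.72, 8.36 and 8.68). It was 0.857 for BCL3, where control replicate 2 was low (9.29, 9.0, 9.33 and 9.32), and 0.834 for RNF39, where control replicate 4 was low (6.18, 6.22, 6.22 and 5.96). For RSAD2, APOC3, DLL4 and BCL3 both 3 h arrays lay outside all 4 controls, and for CCL2 and RNF39 they did not lie on 1 side of them.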

How the results depend on the processing

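The count of 5 called probe sets was 4 after repeated quantile normalization and 5 with trended robust variance, with each array centred on its median or with dim probe sets left out. It was 0 with only the 6 arrays in the fit and 0 with control replicates 1 and 4 averaged, and 0 to 546 when single arrays were left out (leaving out control replicates 1, 2, 3 and 4 gave 0, 8, 60 and 0, and leaving out 3 h replicates 1 and 3 gave 546 and 36). The labels share only the replicate numbers 1 and 3 between the groups, whose deviations correlated at 0.07 and 0.10 over probe sets, and with the replicate number as a block 2 probe sets were called. The 595 genes above the controls became 475 to 740 under the other settings and 679 to 2547 when single arrays were left out. The 798 below became 635 to 918 and 910 to 3108. A group with fewer arrays has a narrower range, so these counts grow by construction. Without control replicate 3 they were 1014 and 1447.

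Of 1515 log2 differences of the 109 named genes under the alternatives, 1426 kept their direction and their side of the threshold, 19 were no longer called, 45 became called and 25 changed sign, in 22 genes. With single arrays left out, the lowest and highest differences were -0.76 and 4.92 for INHBA, -0.28 and 4.52 for SHROOM3, -0.44 and 3.67 for FOSB, -0.066 and 4.01 for TRIB1, -0.43 and 3.37 for RNF39, -0.65 and 2.77 for F3, -0.56 and 2.78 for LMO7, -1.94 and 1.15 for CSN1S1, -1.02 and 1.66 for R3HCC1, -0.53 and 1.95 for CCNB1, -1.49 and 0.79 for CDC7, -0.81 and 1.35 for CCNB2, -0.47 and 1.66 for PSPH, -0.51 and 1.49 for CKS2, -0.47 and 0.16 for LHCGR, -0.53 and 1.08 for EGR1, -0.19 and 1.67 for NR4A1, -0.46 and 1.25 for PTGS2, -0.42 and 0.58 for VEGFA, -1.45 and 4.08 for AREG, -0.34 and 1.09 for EDN1 and -0.044 and 0.21 for IGF1. LHCGR also turned to 0.53 with the replicate block and to 0.14 with control replicates 1 and 4 averaged. With 2 arrays at 3 h, the number of arrays limits the precision of every value. Where 1 array of a pair was left out, the remaining one was assumed to vary like the other groups.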

Other observations

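Markers of other cell types gave values of their own. Of 10 neutrophil markers 1 lay above the controls and 1 below at 3 h (10% and 10%, where all genes gave 6.5% and 8.72%). The calgranulin gene S100A12, singled out after its values were seen, stood at 9.20 and 13.19 at 3 h, against 9.64, 11.49, 11.21 and 9.55 in controls, and S100A8 at 11.01 and 13.38 against 12.93, 12.43, 12.15 and 12.82, with replicate 3 over every control in both. Of 17 T and NK cell markers 2 lay above (CD8B and NKG7) and 1 below (LCK, at 6.68 and 6.64 at 3 h, against 6.89 to 7.15 in controls). The shares were 11.8% and 5.88%, where all genes gave 6.5% and 8.72%. Of 13 fibroblast markers 0 lay outside the controls in both arrays, and of 13 smooth muscle markers 1 did, SMTN, at 8.62 and 9.13 against 7.98 to 8.54. SMTN lay above, a share of 7.69%, where all genes gave 6.5%. CNN1, the smooth muscle calponin, stood at 7.31 and 10.51 at 3 h, against 7.47, 9.26, 8.30 and 7.40 in controls, chosen after its values were seen. Of 7 red blood cell markers 2 lay below (AHSP and ALAS2) and 0 above (28.6% and 0%, where all genes gave 8.72% and 6.5%). Both were low on the scale and below by little. AHSP stood at 5.47 and 5.14 against a lowest control of 5.53, and ALAS2 at 5.37 and 5.40 against 5.41. The haemoglobin genes HBA (5.94 and 5.68 against 5.66 to 5.83) and HBB (6.90 and 6.42 against 6.27 to 6.79) had replicate 1 over every control. Without control replicate 3, 5 T and NK cell markers lay above (29.4%, where all genes gave 11.1%). In the same setting 3 red blood cell markers lay below (42.9%, where all genes gave 15.8%). The added one was HBM, at 7.32 and 7.03 against 7.34 to 7.42.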
